A study of Mus musculus with 14 samples.

Results

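The skin lies over skeletal muscle, and 10 genes of its outer layer, the epidermis, were followed in libraries made from muscle. They were the basal keratins Krt5, Krt14 and Krt15, the suprabasal keratins Krt1 and Krt10, the barrier genes Lor and Sbsn, the desmosome genes Dsp and Perp, and the transcription factor gene Trp63. These were the 10 genes of 54532 in the table whose name equalled one of these symbols, and they had been selected on their variation over the 14 libraries. Their levels and their covariation are therefore given as a description, with no test. The contrasts between groups were tested, but differences between groups are part of that variation, so these tests are not independent of the choice.

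The epidermis is a stratified epithelium. Its basal cells build a filament network from Krt5 and Krt14 and carry p63, the product of Trp63, and as they move outward they change to Krt1 and Krt10 and lay down loricrin (Lor) and suprabasin (Sbsn) in the granular and cornified layers. Desmosomes, which hold desmoplakin (Dsp) and the membrane protein Perp, join the cells and anchor the keratins, and other tissues under mechanical load make desmosome proteins too.

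The study asked how c-Myc in endothelial cells acts on metabolism in mice on a fat-rich diet, and sequenced poly(A) RNA of skeletal muscle. The libraries formed 4 groups: controls on control diet (CT-CTD, n = 3), controls on western diet (CT-WD, n = 3), and c-Myc overexpressing mice on control diet (OE-CTD, n = 4) and on western diet (OE-WD, n = 4). All mice were FVB/N males that carried Tet-O-Myc, a human MYC transgene on the Y chromosome. OE mice also carried Cdh5-tTA, a transactivator under an endothelial promoter, which CT littermates lacked. Overexpression was induced by taking the mice off doxycycline diet at 4 to 6 weeks of age, and the western diet, also called high-fat diet, or the control diet was given for 20 weeks by the treatment label of the libraries, while the paper's text on the muscle RNA names 10 weeks of western diet. The methods name soleus and gastrocnemius muscle, but the labels do not say which muscle a library came from, nor how much skin lay on the dissected tissue. A legend of the paper gives other library numbers per diet than the labels, which were kept. The labels do not say that the libraries of a group came from separate animals, so p-values measure only the spread between these libraries, which may be technical. The deposited sample codes of OE-CTD 1, 2 and 3 end in the same digits, as do those of all 4 OE-WD libraries, whereas OE-CTD 4 and each CT library have digits of their own. Among the CT libraries, CT-CTD 1 and CT-WD 1, the highest of their groups in Krt5, have consecutive digits, far from those of the other 4, which are also consecutive. What the digits mark is not stated, and if equal digits mark a shared source, the OE groups hold fewer separate samples than their n.

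Total counts per library ran from 21833839 (CT-WD 2) to 28519159 (OE-CTD 2), so that 1 count was worth 0.033 to 0.051 counts per 1000000 (CPM). CPM were scaled by library totals and trimmed mean of M values (TMM) factors. A library without a count of a gene can still hold up to 3 counts' worth of it, 0.099 to 0.153 CPM, and such limits cover counting error only. The tissue label was checked against muscle markers. The 9 skeletal muscle markers summed to between 121000 and 176000 CPM, Acta1 had 37300 to 52600 CPM, Ckm 11800 to 15900 CPM and Myh4 38300 to 62700 CPM. Over all genes, the counts of 2 libraries of a group differed with a chi-square per degree of freedom of 17.6 to 28.2 in CT-CTD and 31.5 to 52.9 in CT-WD. In OE-CTD this was 39.0 to 45.0 between OE-CTD 4 and the other libraries and 8.0 to 11.0 among those 3, which share code digits. In OE-WD, where all 4 libraries share code digits, it was 40.7 to 44.3 for OE-WD 4 and 8.76 to 15.7 among the others. OE-CTD 4 and OE-WD 4 thus stood apart within their groups, but by no more than CT-WD 1 and CT-WD 3 from each other. They had the smallest TMM factors (0.888 and 0.899) and the largest mitochondrial shares (14.9% and 14.5% of counts, against 9.66% to 12.8% in the other 12 libraries). In the basal keratins a different set of libraries stood out. CT-CTD 1, CT-WD 1, OE-WD 2 and OE-WD 3 were high, and CT-CTD 2 and OE-CTD 4 were low.

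The 3 basal keratins had nearly the same pattern. Krt5 (ENSMUSG00000061527, chromosome 15, 101707070 to 101712898, minus strand, mm10), the type II partner of the basal pair, was at 18.4, 0.418 and 2.66 CPM in CT-CTD, 28.4, 2.13 and 1.07 in CT-WD and 4.41, 9.14, 11.3 and 0 in OE-CTD, while the OE-WD libraries held 3.93, 18.4, 30.8 and 11 CPM. Its type I partner Krt14 (ENSMUSG00000045545, chromosome 11, 100203162 to 100207548, minus strand) was at 13.7, 0.209 and 1.23 CPM in CT-CTD, 23.9, 1.93 and 0.889 in CT-WD and 2.88, 5.81, 7.05 and 0 in OE-CTD, while the OE-WD libraries held 1.05, 10.1, 21.9 and 7.11 CPM. In each CT group 1 library held most of the signal, and the ranges of all 4 groups overlapped for both genes. In OE-CTD 4 neither gene had a single count, while OE-WD 3 held 723 counts of Krt5 and 514 of Krt14. Krt15, a type I keratin of basal cells and of the hair follicle bulge, was at 11.1, 0.251 and 1.59 CPM in CT-CTD, 15.6, 2.32 and 1.33 in CT-WD and 1.11, 6.3, 6.39 and 0 in OE-CTD, while the OE-WD libraries held 3.31, 8.94, 13.4 and 3.74 CPM. It too was at 0 in OE-CTD 4 and highest in CT-WD 1. In these bulk samples, fewer epidermal cells and less RNA per cell cannot be told apart. Against the limit of 3 counts in the lowest library, the highest library was at least 201-fold higher for Krt5, 156-fold for Krt14 and 102-fold for Krt15.

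The 3 genes were tightly linked across libraries. With log2 CPM (prior count of 2) over the 14 libraries, Pearson's r was 0.98 (Spearman's rho 0.97) for Krt5 with Krt14, 0.97 (0.94) for Krt5 with Krt15 and 0.96 (0.93) for Krt14 with Krt15. These are 3 of the 45 pairs among the 10 genes, all given as description. The libraries differ in depth, 7 of the OE libraries share code digits with others of their group, and OE-CTD 4, with no count of the 3 genes, lies far below the rest. Per length, in the authors' FPKM, the ratio of Krt14 to Krt5 had a median of 0.81 and ran from 0.334 in OE-WD 1 to 1.14 in CT-WD 2 over the 13 libraries with more than 3 counts of both. The ratio of Krt15 to Krt14 ran from 0.385 in OE-CTD 1 to 3.13 in OE-WD 1, so OE-WD 1 had little Krt14 for its Krt5 and Krt15. Keratin genes resemble each other in sequence, and how reads shared by paralogs were counted is not given in the sources used here, so the split between keratins is uncertain.

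Krt1 and Krt10 form the filament pair of suprabasal cells, yet only Krt1 followed the basal keratins to the bottom of their range. Krt1 (ENSMUSG00000046834, chromosome 15, 101845426 to 101850794, minus strand) was at 1.5, 0 and 1.07 CPM in CT-CTD, 8.03, 0.435 and 0.4 in CT-WD and 1.46, 2.61, 2.72 and 0 in OE-CTD, while the OE-WD libraries held 1.52, 7.96, 11.4 and 2.61 CPM. Krt10 (ENSMUSG00000019761, chromosome 11, 99385254 to 99389364, minus strand) was at 4.11, 3.68 and 4.37 CPM in CT-CTD, 13.8, 3.62 and 5.87 in CT-WD and 6.48, 7.72, 8.04 and 2.4 in OE-CTD, while the OE-WD libraries held 5.49, 19.1, 25.5 and 7.03 CPM. Krt10 kept a floor: its lowest library, OE-CTD 4, still had 47 counts, where Krt1, Krt5, Krt14 and Krt15 had 0, and the 3 CT-CTD libraries lay within 3.68 to 4.37 CPM although Krt5 ran there from 0.418 to 18.4 CPM. The highest library exceeded the lowest by 10.6-fold for Krt10 (95% exact interval 7.9 to 14.6, counting error only) and by at least 90.8-fold for Krt1. In FPKM, the ratio of Krt1 to Krt10 was 0.278 in CT-WD 1, 0.214 in OE-WD 3 and 0.199 in OE-WD 2, the libraries rich in both, but 0.0326 in CT-WD 3 and 0.0575 in CT-WD 2. Over the 12 libraries with more than 3 counts of both it had a median of 0.162.

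The barrier genes split in the same way. Lor (ENSMUSG00000043165, chromosome 3, 92080271 to 92083142, minus strand), which encodes the main protein of the cornified envelope, was at 0.396, 0.293 and 1.87 CPM in CT-CTD, 15.4, 0.435 and 2.04 in CT-WD and 6.09, 10.4, 6.43 and 0.051 in OE-CTD, while the OE-WD libraries held 2.84, 24.4, 30.5 and 8.07 CPM. It went from 1 count in OE-CTD 4 to 717 in OE-WD 3, a ratio of 598 with an exact 95% interval of 107 to 23600. Sbsn (ENSMUSG00000046056, chromosome 7, 30751471 to 30756134, plus strand) was at 3.04, 1.67 and 2.06 CPM in CT-CTD, 5.5, 1.88 and 1.65 in CT-WD and 3.37, 4.16, 3.3 and 2.4 in OE-CTD, while the OE-WD libraries held 3.5, 5.22, 7.74 and 3.17 CPM, with no library under 37 counts and a highest to lowest ratio of 4.71 (3.29 to 6.9). Lor and the basal keratins parted in 1 library. CT-CTD 1 was among the richest in Krt5, at 18.4 CPM, but had 0.396 CPM of Lor, and its FPKM ratio of Lor to Krt5 was 0.0266, against 0.253 to 2.37 in the other 12 libraries with more than 3 counts of both.

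Dsp and Perp both encode desmosome proteins, but they fell in different classes. Dsp (ENSMUSG00000054889, chromosome 13, 38151294 to 38198577, plus strand) was at 4.15, 0.586 and 1.15 CPM in CT-CTD, 6.43, 1.01 and 0.622 in CT-WD and 0.92, 2.54, 2.39 and 0.765 in OE-CTD, while the OE-WD libraries held 1.83, 6.1, 7.53 and 4.94 CPM. The same 4 libraries that were high in Krt5 were high in Dsp, together with OE-WD 4. Perp (ENSMUSG00000019851, chromosome 10, 18845020 to 18857073, plus strand), also a target of p53 and p63, was at 13.4, 11 and 11.9 CPM in CT-CTD, 20.0, 8.07 and 9.91 in CT-WD and 8.01, 9.4, 7.92 and 6.79 in OE-CTD, while the OE-WD libraries held 9.49, 11.3, 15.4 and 11.7 CPM. Perp was present everywhere, with at least 133 counts, and its highest library exceeded its lowest by 2.94-fold (2.43 to 3.58), against 12.9-fold (7.46 to 24) for Dsp. Trp63 (ENSMUSG00000022510, chromosome 16, 25683763 to 25892102, plus strand) was at 10.1, 13.8 and 12.6 CPM in CT-CTD, 8.93, 12.5 and 24.5 in CT-WD and 8.7, 8.28, 9.36 and 12.7 in OE-CTD, while the OE-WD libraries held 9.49, 13.7, 13.2 and 12.9 CPM. Its highest library was CT-WD 3, a library low in all 3 basal keratins, and its lowest was OE-CTD 2.

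**Figure D1:**
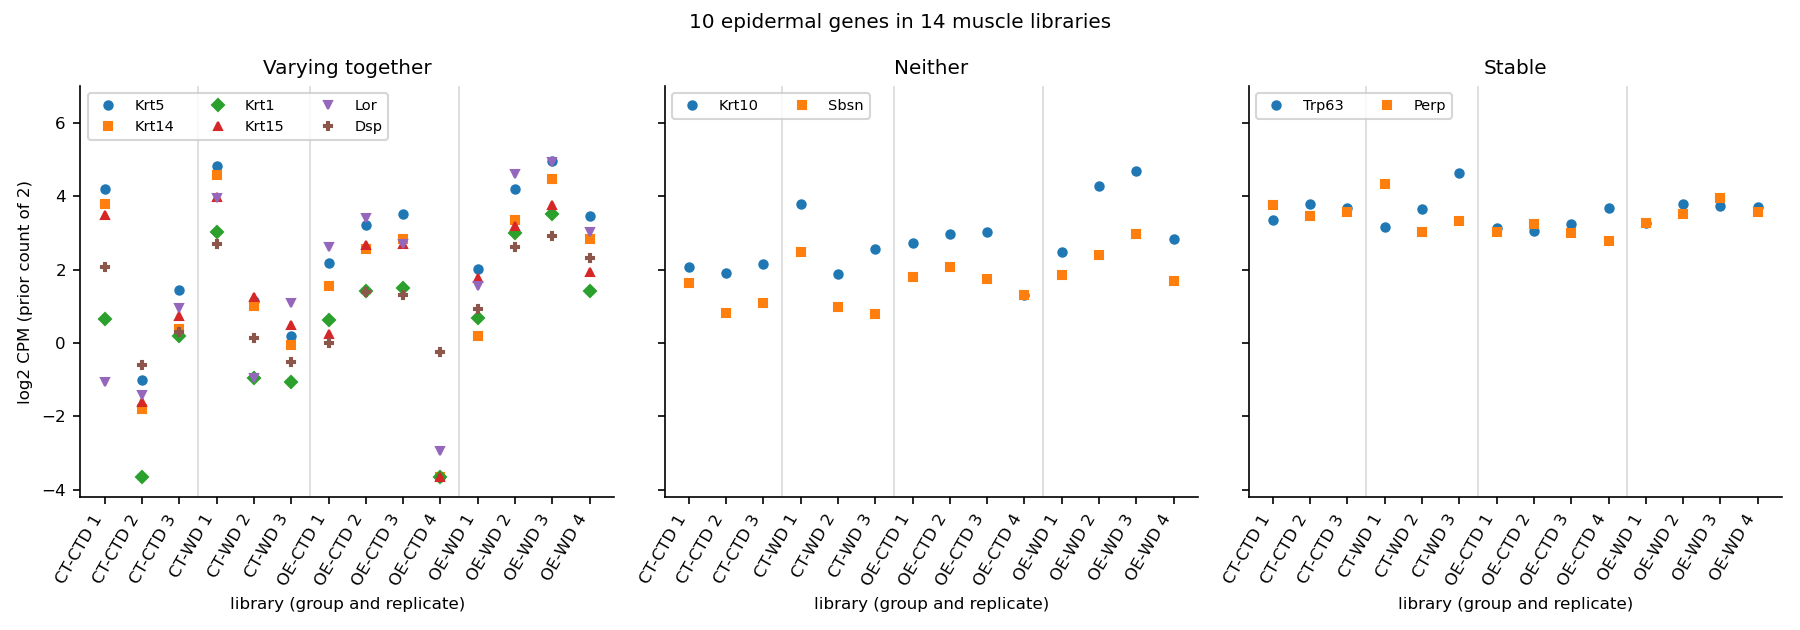
Level of each of the 10 genes in the 14 libraries, as log2 CPM with a prior count of 2, in panels by class; each point is 1 library and the grey lines part the groups. In the left panel 6 genes move over a wide range, each with its lowest point in CT-CTD 2 or OE-CTD 4. In the right panel Perp and Trp63 stay between 2.78 and 4.62.

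The standard deviation (SD) of log2 CPM over the 14 libraries and the correlation with the mean of the other 9 genes put numbers on this. A gene was called varying together with SD of at least 1 and r of at least 0.7, and stable with SD under 0.5. Among all 15458 genes tested the median SD was 0.249, 2.06% reached 1 and 78.6% were under 0.5. By this rule 6 genes varied together: Lor (SD 2.44, r 0.84), Krt5 (2.43, 0.96), Krt14 (2.39, 0.94), Krt1 (2.21, 0.97), Krt15 (2.15, 0.92) and Dsp (1.27, 0.88). Krt10, at SD 0.95 and r 0.87, lay just outside, and Dsp was the gene just inside. Sbsn, at 0.65 and 0.82, also met neither definition. Perp (SD 0.41, r 0.63) and Trp63 (SD 0.40, r −0.33) were stable by this rule, though 71.5% and 70.6% of all genes tested had a lower SD. Without the 2 libraries farthest from the median of the other genes' mean (OE-CTD 4 with CT-CTD 2, or with OE-WD 3 for Krt5), r was 0.69 for Lor, 0.64 for Perp, −0.30 for Trp63 and 0.83 to 0.97 for the other 7 genes. Lor then lay just under 0.7, so its place in the class rested on OE-CTD 4 and CT-CTD 2 together. With 1 library left out, its r was 0.77 without OE-CTD 4, 0.81 without CT-CTD 2 and 0.95 without CT-CTD 1. Spearman's rho was 0.81 for Lor, 0.93 for Krt5, 0.90 for Krt14, 0.97 for Krt1, 0.88 for Krt15, 0.92 for Dsp, 0.89 for Krt10, 0.85 for Sbsn, 0.56 for Perp and −0.25 for Trp63.

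Most of this spread lay within the groups. Taken about the 4 group means, the SD of log2 CPM was 2.53 for Krt5, 2.55 for Krt14, 2.21 for Krt15, 2.12 for Krt1, 2.21 for Lor and 1.18 for Dsp, close to the values over all libraries. edgeR's biological coefficient of variation was 97.4% to 115% for these genes apart from Dsp (65.7%), 46.2% for Krt10, 35.1% for Sbsn, 24.1% for Trp63 and 22.4% for Perp, against 17% in common for all genes. The 15 pairs among the 6 genes had r from 0.70 (Lor with Dsp) to 0.98, with a median of 0.87. Lor was closer to Krt10 (r 0.93, rho 0.97) and Krt1 (0.90, 0.91) than to Krt15 (0.73, 0.71). By r, however, Krt1 was closer to the basal keratins Krt5 (0.94, 0.92), Krt14 (0.92, 0.88) and Krt15 (0.91, 0.89) than to Lor or to its partner Krt10 (0.87, 0.90). The gap to Lor was small, and by rho Krt14 and Krt15 lay below Lor and Krt10 while Krt5 lay above them. The basal keratins themselves had r of 0.96 to 0.98 with each other, against 0.74 to 0.78 with Krt10 and 0.73 to 0.80 with Lor. An order by layer was therefore seen between the basal keratins and Krt10 with Lor, but was not clear for Krt1. Trp63 had a negative r with each of the other 9 genes, from −0.02 with Perp (rho 0.24) to −0.45 with Sbsn, weak values over 14 points. Perp, in contrast, had r of 0.46 (Lor) to 0.67 (Dsp) with the other 8. Taken about the group means, r with the mean of the other 9 genes was −0.55 for Trp63 and 0.77 for Perp, which still had an SD under 0.5.

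Per length, all 10 genes lay far below the muscle markers. The median FPKM was 5.89 for Perp, 3.35 for Krt5, 3.19 for Krt10, 2.73 for Lor, 2.68 for Krt14, 2.2 for Krt15, 1.64 for Trp63, 0.981 for Sbsn, 0.372 for Krt1 and 0.238 for Dsp, while Acta1 had a mean of 30600 FPKM. The order changed with the library. In OE-WD 3 Lor led with 18.7 FPKM, ahead of Krt5 at 15.2, whereas in OE-CTD 4 Perp led and the basal keratins were listed at 0. The ranges over libraries of Krt5, Krt10, Lor, Krt14 and Krt15 overlapped, and differences between these genes within a library were not tested. The lengths behind these values ran from 1758 bases for Krt14 to 9659 bases for Dsp.

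Genes that overlap a member by position had few counts. Gm11940, antisense to Krt10, averaged 0.171 CPM, Tmem147os on the strand of Sbsn 0.0489 CPM, Gm27005 on that of Trp63 0.00861 CPM and Gm10129 opposite Dsp 0.00287 CPM, and Gm44323 opposite Krt5 and Gm24928 opposite Trp63 had none. Whether the counting used strand is not given in the sources used here. Krt14, Krt15 and Krt10 lie in the type I keratin cluster of chromosome 11, and Krt1 and Krt5 in the type II cluster of chromosome 15, so the genes that varied together sat in both clusters and on chromosomes 3 and 13.

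In the diet contrast of CT mice, 0 of the 10 genes passed an adjusted p under 0.05 and a fold over 1.5 in edgeR's quasi-likelihood test, and so did 0 of 15458 genes (0%). At an unadjusted p under 0.05 with the same fold, 1 gene (Lor) passed, against 3.05% of all genes. Lor had a log2 fold change of 2.82 ± 1.27 (SE, adjusted p 0.667 by edgeR), with CT-WD at 5.95 ± 8.19 CPM (SD, n = 3) and CT-CTD at 0.852 ± 0.88 CPM (SD, n = 3). That value rested on CT-WD 1: without it the log2 fold change was 0.55. With the replicate number as a block, which pairs the same-numbered libraries, Lor had 2.26 (unadjusted p 0.122) and 0 of the 10 genes passed at an unadjusted p with the fold. Lor also missed it without CT-CTD 1 (p 0.11), CT-CTD 2 (0.115) or OE-CTD 1 (0.0506), all by edgeR. It missed it too with limma on log2(FPKM + 1) (p 0.24) or log2(FPKM + 0.1) (0.256). Krt5 had 0.58 ± 1.2 (SE, adjusted p 0.964 by edgeR), which turned to −2.18 without CT-WD 1 and was 0.03 without CT-WD 1 and CT-CTD 1. Krt10 had 0.95 ± 0.573 (SE, adjusted p 0.821 by edgeR), and 0.23 without CT-WD 1. All 10 log2 fold changes were above 0, from 0.07 to 2.82, as were those of 51.5% of all genes, but only 3 were without CT-WD 1. Their median was 0.58, beside 0.01 over all genes, and it was −0.74 without CT-WD 1 and 2.05 without CT-CTD 1. None of the 10 had groups that did not overlap, against 9.63% of all genes.

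In the diet contrast of OE mice, the log2 fold changes of all 10 genes were again above 0, from 0.34 (Trp63) to 1.75 (Krt1), as were those of 51.4% of all genes, with a median of 1.26 beside 0.01 over all genes. None passed the adjusted test, against 0.00647% of all genes, and 2 (Krt10 and Dsp) passed at an unadjusted p with the fold, against 1.37%. Krt10 averaged 14.3 ± 9.66 CPM in the OE-WD libraries and 6.16 ± 2.6 CPM in the OE-CTD libraries (SD, n = 4 each), a log2 fold change of 1.2 ± 0.478 (SE, adjusted p 1 by edgeR). Dsp was at 5.1 ± 2.42 against 1.65 ± 0.941 CPM (SD, n = 4 each), a log2 fold change of 1.60 ± 0.687 (SE, adjusted p 1 by edgeR). Krt5, with 0 counts in OE-CTD 4, had 1.34 ± 1.04 (SE, adjusted p 1 by edgeR). Perp had the least overlap: its OE-WD libraries, at 9.49 to 15.4 CPM, lay above its OE-CTD libraries, at 6.79 to 9.4 CPM. It was the 1 of 10 genes whose groups did not overlap, against 4.08% of all genes, with a log2 fold change of 0.57 ± 0.229 (SE, adjusted p 1 by edgeR). The median of the 10 genes was 0.69 without OE-WD 3 and 0.94 without OE-CTD 4, and no gene then passed at an unadjusted p with the fold. Both calls also ended without OE-WD 2 (p 0.066 for Krt10 and 0.0656 for Dsp). That of Dsp ended without OE-CTD 1 (p 0.087) and without OE-CTD 4 and OE-WD 4 together (0.112), and that of Krt10 with limma on log2(FPKM + 1) (p 0.0585) or log2(FPKM + 0.1) (0.0701).

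Between genotypes on western diet, 0 of the 10 genes passed the adjusted test, against 0.563% of all genes, and 0 passed at an unadjusted p with the fold, against 5.74%. DESeq2's Wald test and limma on FPKM also called 0 of the members they tested, as they did in the other contrasts. The median log2 fold change was 0.63, beside 0.01 over all genes, with Perp and Trp63 below 0. This contrast rested on CT-WD 1. Without that library, 905 genes passed in place of 87 (5.72% of 15828), and Dsp and Sbsn were among them. At an unadjusted p with the fold, 7 of the 10 genes then passed in place of 0. The share of all genes passing at an unadjusted p in that run is not given here, so this count has no background beside it. Dsp went from 0.89 ± 0.724 (SE, adjusted p 0.575 by edgeR) to 2.64 (adjusted p 0.0465), and Sbsn from 0.68 ± 0.395 (SE, adjusted p 0.404 by edgeR) to 1.47 (adjusted p 0.0246). Over the alternatives, the adjusted p of Dsp ran from 0.0189 to 0.894 and that of Sbsn from 0.0207 to 0.806. Lor had a log2 fold change of 1.43 ± 0.988 (SE, adjusted p 0.496 by edgeR) and Krt5 0.58 ± 1.1 (SE, adjusted p 0.833 by edgeR), and without CT-WD 1 these were 3.70 and 3.33, with neither passing the adjusted test. The median over the 10 genes went from 0.63 to 2.32 without CT-WD 1 and to 0.22 without OE-WD 3, and the genes called over the whole table ran from 4 to 905 with 1 library left out. No gene had groups that did not overlap, against 11.6% of all genes.

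Between genotypes on control diet, 0 of the 10 genes passed the adjusted test, against 1.91% of all genes. At an unadjusted p with the fold, 2 passed, Lor upward and Perp downward, against 7.12% of all genes. These calls were not stable: 0 of the 10 genes passed without CT-CTD 1, OE-CTD 1 or OE-CTD 3. With limma on log2(FPKM + 1) or log2(FPKM + 0.1), 0 of the members tested passed. Lor also missed it without CT-CTD 2 (p 0.113) or OE-CTD 2 (0.0967), and Perp without CT-CTD 3 (p 0.053) or OE-CTD 4 (0.0719), and without CT-WD 1, 2 or 3 its fold fell just under 1.5. Lor averaged 5.75 ± 4.28 CPM (SD, n = 4) in the OE-CTD libraries and 0.852 CPM in the CT-CTD libraries, with a log2 fold change of 2.77 ± 1.23 (SE, adjusted p 0.279 by edgeR). Its adjusted p was 0.0295 when every gene with a count was tested, the 1 alternative that called it, within a range of 0.0295 to 0.703 over the alternatives. Perp was at 8.03 ± 1.07 CPM (SD, n = 4) in OE-CTD and 12.1 ± 1.2 CPM (SD, n = 3) in CT-CTD, and all 4 OE-CTD libraries lay below the 3 CT-CTD libraries. It was again the 1 gene with no overlap, against 15.5% of all genes. Its log2 fold change of −0.59 ± 0.245 (SE, adjusted p 0.249 by edgeR) sat at the fold threshold. In a fit of these 2 groups alone its adjusted p was 0.0354 with a fold just under 1.5, within a range of 0.0354 to 0.435 over the alternatives. Krt5 had −0.19 ± 1.14 (SE, adjusted p 0.962 by edgeR), and 2.01 without CT-CTD 1. The median over the 10 genes was −0.21, beside 0.00 over all genes, and 1.30 without CT-CTD 1.

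The contrasts share groups, so their values are set side by side and not taken as separate evidence. For the difference of the 2 diet responses, 0 of the 10 genes passed the adjusted test, as did 0 of 15458 genes (0%). At an unadjusted p with the fold 0 passed, against 2.7% of all genes. Without CT-WD 1, 3 of the 10 genes passed at that limit, and the share of all genes in that run is not given here. The median difference of 0.36 was −0.43 without CT-CTD 1 and 1.65 without CT-WD 1. The smallest adjusted p was 0.893 (Perp, edgeR, log2 difference 0.50 ± 0.346 SE).

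**Figure D2:**
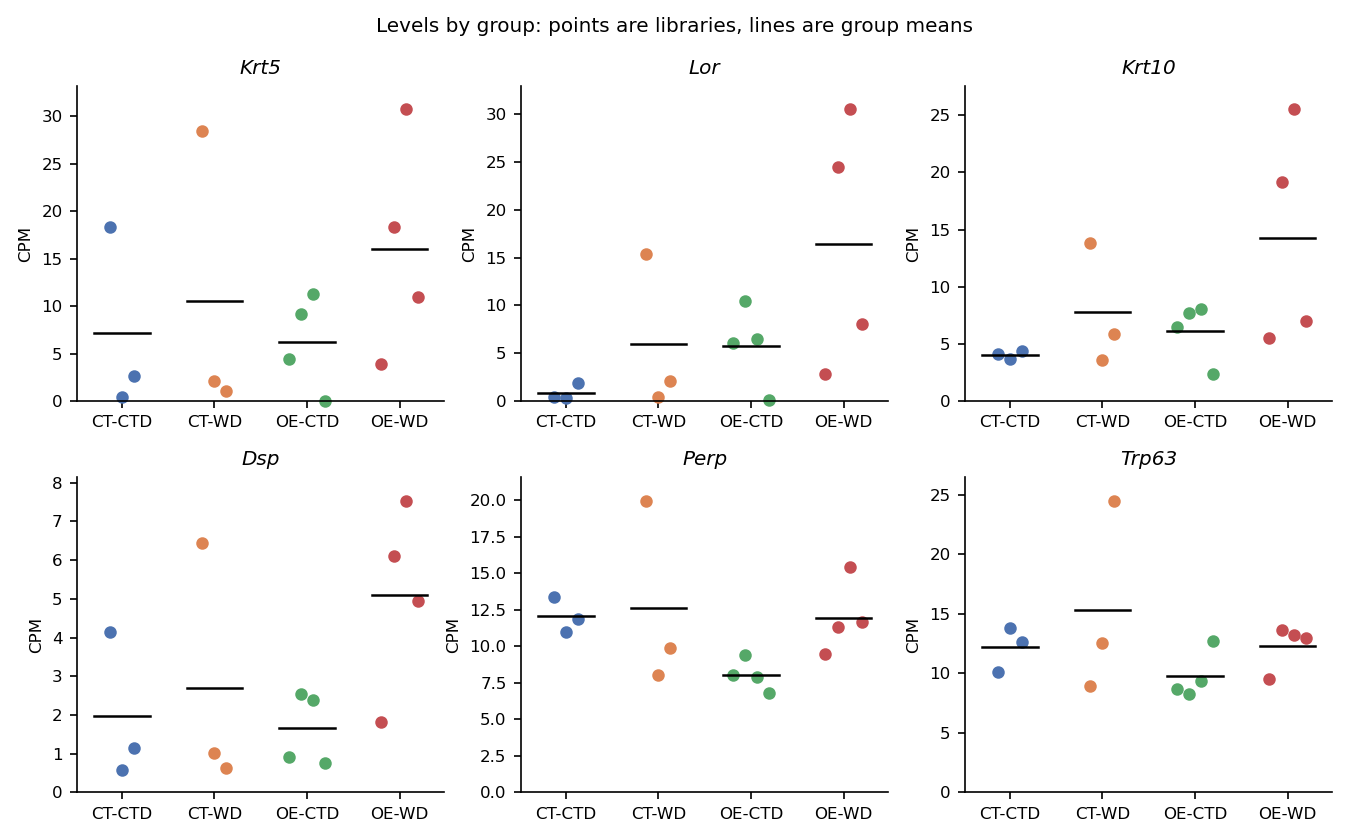
CPM of Krt5, Lor, Krt10, Dsp, Perp and Trp63 by group on linear axes that start at 0; each point is 1 library and each black line a group mean. In both CT groups 1 library lies far above the other 2 for Krt5, and Perp in OE-CTD (6.79 to 9.4 CPM) lies below all CT-CTD libraries.

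Of the other epidermal genes, from lists drawn up by layer, some followed the 10 genes and some did not. The 44 genes of the basal, spinous and granular, cornified and stress keratin lists summed to 45.8, 19.1 and 31 CPM in CT-CTD, 89.9, 24.9 and 34 in CT-WD and 39.6, 57.8, 53.4 and 24.8 in OE-CTD, while the OE-WD libraries held 51.9, 87.7, 127 and 63.6 CPM. Of these 44, 29 passed the filter and 22 had SD of at least 1 and r of at least 0.7 with the mean of the 10 genes, as did 87 of 15458 genes (0.563%). Of the genes that passed the filter these were 3 of 6 in the basal list, 9 of 13 in the spinous and granular list, 9 of 9 in the cornified list and 1 of 1 stress keratin. The other 2 spinous and granular genes, 11 cornified genes and 2 stress keratins were too low to be rated, and 7 rated genes did not meet both limits, among them Gjb2 (SD 0.98, r 0.27), Krt80 (0.53, 0.41) and Lamb3 (0.37, 0.56). One of the 3 in the basal list is Krt17, which hair follicles make too. The filter keeps low genes that are high in some libraries, so a large SD in such genes is partly built in. These counts, and those of the lists below, are therefore description only. They do not test whether a list differs from all genes. The most abundant per length were Itgb4 (2.39 FPKM on average), an integrin of hemidesmosomes, in the basal list, Lgals7 (2.82 FPKM), an epithelial galectin, in the spinous list, Lce1m (1.87 FPKM), a late envelope protein, in the cornified list and Krt6a (0.132 FPKM) among the stress keratins. Itgb4 had an SD of 0.40 and 8.37 to 21.9 CPM, whereas Lce1m ran from 0 in CT-CTD 2 and OE-CTD 4 to 6.59 CPM in OE-WD 3. Sprr1b, Rptn and Krt6b had no count in any library, and the cornified list summed to 0.102 CPM in OE-CTD 4 against 23.3 CPM in OE-WD 3.

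None of the 29 passed the adjusted test in any of the 4 contrasts or in the difference of diet responses (edgeR). Because some of them passed the filter through a few high libraries, their direction and their calls at an unadjusted p are not counted here.

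The desmosome list showed the same split as Dsp and Perp. Jup, encoding plakoglobin and the most abundant of the 16 genes at 18.6 FPKM, had 95 to 127 CPM and an SD of 0.15, and Pkp2 and Pkp4 had SDs of 0.18 and 0.33. Pkp1 (SD 1.89, r 0.97), Pkp3 (1.43, 0.90), Dsg1a (1.48, 0.95) and Dsc3 (1.63, 0.89), forms found mainly in stratified epithelia, followed the epidermal genes and had 0 to 5.32 CPM. Of the list, 10 genes passed the filter and 5, Dsp included, met both limits. Pkp4 was the 1 gene called in a contrast, lower in OE-WD than in CT-WD (log2 fold change −0.64 ± 0.134 SE, adjusted p 0.0399 by edgeR), 1 of 10 tested where 0.563% of all genes were called. It was at 39, 25.6 and 32 CPM in CT-CTD, 31.9, 41 and 44.6 in CT-WD and 24.3, 24.1, 24.5 and 24.5 in OE-CTD, while the OE-WD libraries held 28.5, 24.8, 24.4 and 22.4 CPM, so that all 4 OE-WD libraries lay below the 3 CT-WD libraries, and 11.6% of all genes had no overlap here in either direction. The call was marginal. It held in 9 of 23 alternatives, with adjusted p from 0.00126 to 0.199, and ended with the replicate number as a block (0.164), with limma on log2(FPKM + 1) (0.0558) or log2(FPKM + 0.1) (0.124), in a fit of the 2 groups alone (0.154), without OE-CTD 4 and OE-WD 4 together (0.0961), and without CT-CTD 3 (0.0546), CT-WD 2 (0.145), CT-WD 3 (0.199), OE-CTD 1 (0.0593), OE-CTD 2 (0.0615), OE-CTD 3 (0.0595), OE-WD 2 (0.122), OE-WD 3 (0.108) or OE-WD 4 (0.1).

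Among the 8 epithelial transcription factor genes, Klf5 was the most abundant (1.67 FPKM) and had an SD of 0.38 with 4.59 to 11 CPM. Esrp1 (SD 1.13, r 0.88), a splicing regulator, and Tfap2a (1.09, 0.72) met both limits, and Ovol1 and Tfap2c were too low for the filter. None of the 6 that passed it was called. Tfap2a had 0 counts in CT-WD 2, CT-WD 3 and OE-CTD 4.

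Markers of skin appendages were present in some libraries, and those of the hair follicle in another order than the epidermal genes. The hair follicle list, 19 genes of it in the table, summed to 0.791, 0.92 and 0.874 CPM in CT-CTD, 1.63, 1.55 and 1.6 in CT-WD and 1.23, 1.35, 9.48 and 1.84 in OE-CTD, while the OE-WD libraries held 1.67, 1.82, 20.4 and 68.1 CPM. Krt71, of the inner root sheath and the most abundant at 0.575 FPKM, had 316 counts in OE-WD 4, 57 in OE-WD 3, 12 in OE-CTD 3, 7 in CT-CTD 3 and 0 in the other 10 libraries. OE-WD 4 thus held the most hair follicle signal with only 11 CPM of Krt5, and CT-WD 1 had 28.4 CPM of Krt5 and 1.63 CPM of the hair follicle sum. Of the 19 genes, 8 passed the filter, most of them through OE-CTD 3, OE-WD 3 and OE-WD 4, so their contrasts are not counted here. None of the 8 met both limits.

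The sebaceous gland list summed to 5.93, 1.72 and 2.66 CPM in CT-CTD, 7.34, 3.14 and 1.91 in CT-WD and 1.99, 3.93, 4.37 and 1.89 in OE-CTD, while the OE-WD libraries held 2.76, 5.93, 4.3 and 2.45 CPM, and its most abundant gene, Krt79 (0.222 FPKM), had 76 counts in CT-WD 1, 60 in OE-WD 2 and 55 in CT-CTD 1 but 0 in CT-CTD 2 and CT-CTD 3. The 3 libraries with the highest sums, CT-WD 1, CT-CTD 1 and OE-WD 2, were also high in Krt5. Of the 3 genes of the list that passed the filter, Krt79 met both limits (SD 1.78, r 0.76). Far2 fell short in SD (0.905, r 0.75), and Dgat2l6 went the other way (SD 0.45, r −0.50). Awat1 was at 0 in 8 of the 14 libraries. The melanocyte list stayed between 0.278 and 0.978 CPM, with Pmel (0.198 FPKM) its most abundant gene and Tyr at 1 count in CT-WD 1 and 0 elsewhere. The keratins of internal stratified epithelia, Krt4, Krt13 and Krt76, summed to at most 0.201 CPM, with Krt4 the most abundant (0.0162 FPKM) and Krt13 at 1 count in all. Simple epithelium and mesothelium markers summed to 1.69 to 3.47 CPM, led by Krt18 (0.469 FPKM, r −0.46). Epcam, 1 of the 4 of them that passed the filter, met both limits (SD 1.21, r 0.88) with at most 0.808 CPM.

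**Figure D3:**
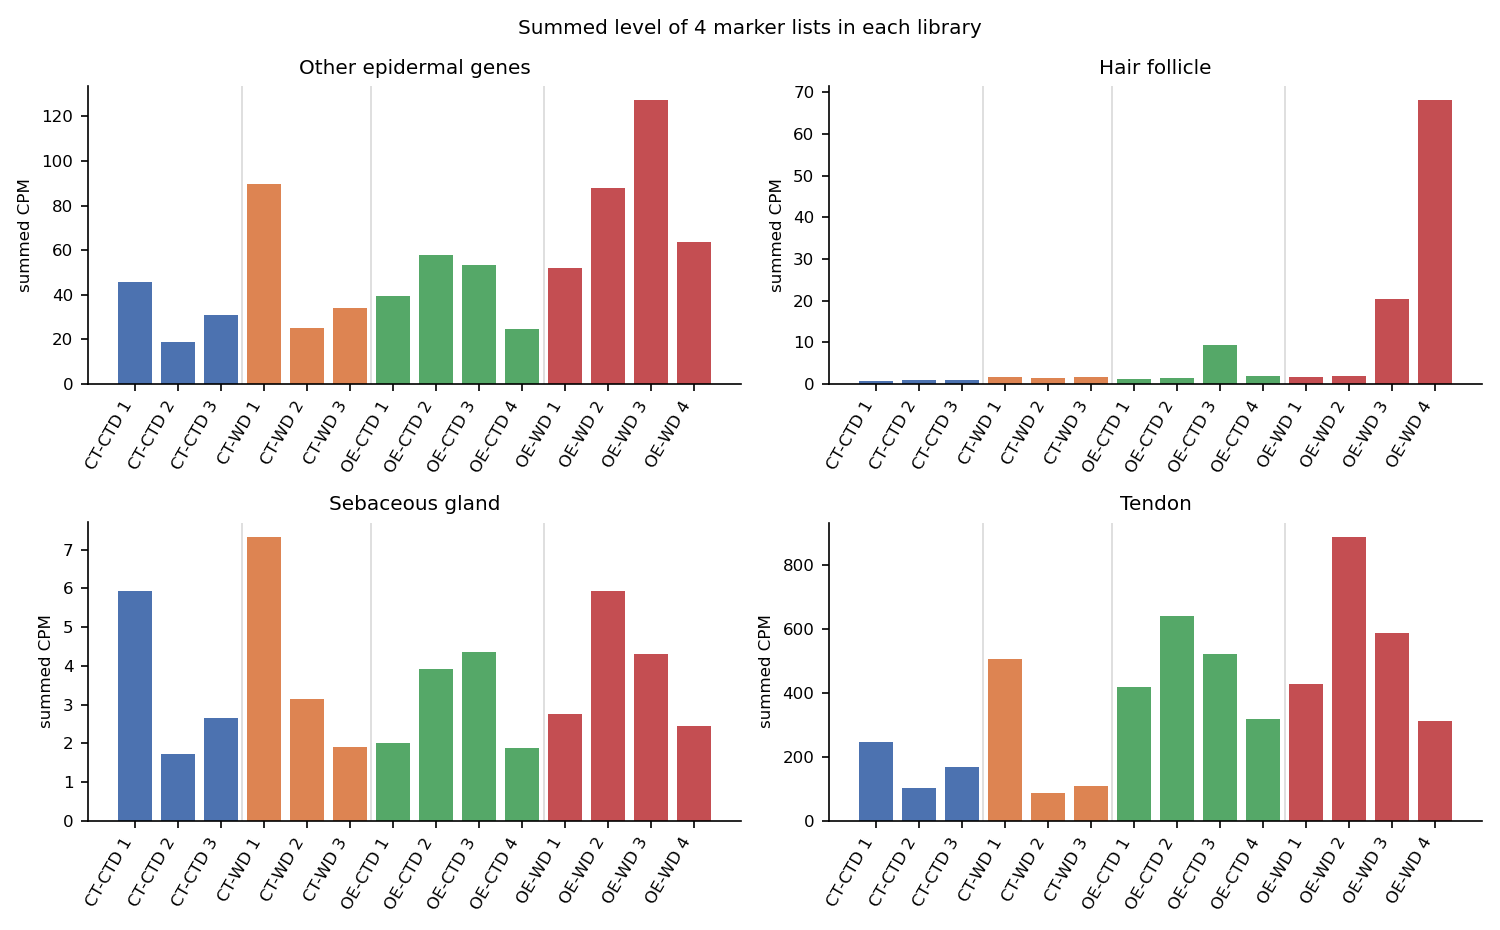
Summed CPM of 4 marker lists in each library, with bars from 0 coloured by group. The other epidermal genes peak in OE-WD 3 (127 CPM), the hair follicle list in OE-WD 4 (68.1 CPM), the sebaceous gland list in CT-WD 1 (7.34 CPM) and the tendon list in OE-WD 2 (888 CPM).

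Lists of other tissue that lies on or in muscle moved with some of the same libraries. The tendon list summed to 245, 102 and 166 CPM in CT-CTD, 504, 84.9 and 108 in CT-WD and 417, 641, 520 and 317 in OE-CTD, while the OE-WD libraries held 427, 888, 585 and 312 CPM, led by Fmod (63.5 FPKM). The adipocyte list summed to 177, 85 and 45.4 CPM in CT-CTD, 142, 40.4 and 22.5 in CT-WD and 78.7, 74.1, 120 and 42.1 in OE-CTD, while the OE-WD libraries held 57.1, 106, 75 and 72.3 CPM, led by Cfd (39.2 FPKM) and with its maximum in CT-CTD 1, one of the libraries high in Krt5. OE-WD 2 was high in tendon and epidermal genes alike, but OE-CTD 2, at 641 CPM of tendon markers, had only 9.14 CPM of Krt5. None of the 6 tendon and 5 adipocyte genes was called, while 5 of the 6 tendon genes passed upward at an unadjusted p with the fold in OE-CTD against CT-CTD, where 7.12% of all genes passed in either direction. The endothelium list, led by Cdh5 (24.2 FPKM), summed to 325 to 381 CPM in the 8 OE libraries, above its 263 to 307 CPM in all 6 CT libraries. Taken singly, its genes overlapped apart from Emcn, as with Cdh5 at 78.5 CPM in OE-CTD 4 and 86.7 CPM in CT-WD 1. The share of all genes that part OE from CT libraries in this way is not given here. The lymphatic endothelium list ran from 19.6 to 39.2 CPM, led by Lyve1 (2.62 FPKM), and the slow fibre list from 2890 to 4520 CPM, led by Myl3 (400 FPKM), with 0 genes called in each of the 3 lists. The part of these tissues in the epidermal values was not tested.

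Genes most like a member were found by Pearson's r of log2 CPM over the 14 libraries among all tested genes outside the 10. For Krt5 they were Lgals7 (r 0.96, rho 0.94), the desmosomal plakophilin Pkp1 (0.95, 0.96), the hemidesmosome collagen Col17a1 (0.95, 0.96), the lipid elongase Elovl4 (0.94, 0.93) and Trim29 (0.93, 0.95). For Krt10 they were Flg2 (0.95, 0.92), Krtdap (0.95, 0.98), Lce1m (0.94, 0.95), Fam25c (0.92, 0.92) and Calm4 (0.92, 0.92). For Dsp they included Dsc3 (0.95, 0.94), Psapl1 (0.95, 0.91), Ly6d (0.95, 0.95) and Serpinb5 (0.94, 0.93). These 14 genes were low, with at most 10.6 CPM in any library. For the stable gene Perp they were Il34 (0.83, 0.68), Uts2r (0.81, 0.78), Cd2ap (0.80, 0.79), Ppwd1 (0.79, 0.59) and Tmc4 (0.79, 0.86), with no keratin or envelope gene among them, and Cd2ap, at 12.6 to 20.9 CPM, was present in every library.

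RefSeq promoters run from 250 bases before to 50 after a gene's start (GRCm38.p6). They were listed for 6 of the 10 genes (Krt5, Krt14, Krt10, Lor, Dsp and Sbsn). The listed start of Krt14 lay 1518 bases inside the gene of the count table, so its window is not counted with the others. Promoters of Krt5 and Lor, which varied together, and of Krt10 and Sbsn, which kept a floor, are printed 5′ to 3′, with capitals for a match on either strand to TGANTCA (AP-1), GCCNNNGGC (AP-2), ACCGGT (grainyhead) or ACATGT (p53 family half-site core). The windows lie at chr15:101712856-101713155 (minus strand), chr3:92083093-92083392 (minus strand), chr11:99389315-99389614 (minus strand) and chr7:30751221-30751520 (plus strand) in the order Krt5, Lor, Krt10, Sbsn.
Krt5: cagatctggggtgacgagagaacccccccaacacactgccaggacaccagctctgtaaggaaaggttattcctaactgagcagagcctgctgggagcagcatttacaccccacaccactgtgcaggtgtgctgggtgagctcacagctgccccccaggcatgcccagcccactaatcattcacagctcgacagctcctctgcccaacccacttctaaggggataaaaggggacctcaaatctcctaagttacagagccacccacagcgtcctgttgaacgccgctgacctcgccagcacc
Lor: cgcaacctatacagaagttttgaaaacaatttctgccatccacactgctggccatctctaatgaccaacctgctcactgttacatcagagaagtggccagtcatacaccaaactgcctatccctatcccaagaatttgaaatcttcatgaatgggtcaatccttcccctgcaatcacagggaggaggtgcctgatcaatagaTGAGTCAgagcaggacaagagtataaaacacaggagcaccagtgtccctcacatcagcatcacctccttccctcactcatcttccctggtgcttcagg
Krt10: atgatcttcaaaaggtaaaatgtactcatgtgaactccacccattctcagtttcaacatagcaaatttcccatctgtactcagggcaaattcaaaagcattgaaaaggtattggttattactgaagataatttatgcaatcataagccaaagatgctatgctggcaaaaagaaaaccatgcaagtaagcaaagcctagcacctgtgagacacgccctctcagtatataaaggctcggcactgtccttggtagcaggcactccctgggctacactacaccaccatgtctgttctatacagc
Sbsn: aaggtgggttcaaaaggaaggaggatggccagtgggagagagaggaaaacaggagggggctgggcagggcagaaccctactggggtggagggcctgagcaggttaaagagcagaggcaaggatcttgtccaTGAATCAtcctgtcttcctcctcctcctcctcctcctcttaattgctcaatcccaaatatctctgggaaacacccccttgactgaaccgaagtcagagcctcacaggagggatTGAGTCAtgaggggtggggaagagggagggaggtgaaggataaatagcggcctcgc
Lor held 1 AP-1 match, at bases 203 to 209 of the window, and Sbsn 2, at bases 132 to 138 and 245 to 251, a motif found in 7.81% of all 32851 promoters. Krt5 and Krt10 held none of the 4 motifs, and Dsp held 1 AP-2 match, a motif found in 16.6%. The grainyhead and p53 family letters, found in 2.33% and 5.28% of promoters, were in none of the 5 windows counted. The window listed for Krt14 held none of the 4 motifs. Of the 6 genes that varied together only Krt5, Lor and Dsp had a window that was counted, and no motif was found in more than 1 of these 3. A match or its absence is a description of the sequence and not of a factor. GC content was 57.7% for Krt5, 47.7% for Lor, 42.0% for Krt10, 55.3% for Sbsn and 73.0% for Dsp.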

How the data were processed

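Skeletal muscle RNA of 14 libraries was compared in 4 groups, taken from the sample labels. The deposited count table gave raw read counts per gene, which per the submitters' processing notes were made with HISAT2 (2.0.5) and featureCounts (1.5.0-p3) on mm10; strand and multi-mapping settings are not given in the sources used here. The deposited FPKM table was made by the authors from the same genes; its scaling totals were 79.9% to 98.0% of the summed counts. Gene positions equalled the reference annotation for 98.3% of shared identifiers and for all 10 members. Counts were analysed in edgeR 4.0.16 (TMM, filterByExpr, quasi-likelihood test, 1 mean per group, all 14 libraries), with Benjamini-Hochberg adjustment over 15458 genes; all 10 members passed the filter. Alternatives were DESeq2 1.42.0 (its size factors and its Wald test), no filter, limma 3.58.1 on log2(FPKM + 1) or log2(FPKM + 0.1), only the 2 groups compared, a replicate block, and each library left out. Replicates differed by more than sampling noise, so none was merged. Same-numbered CT-WD and CT-CTD libraries deviated together (correlations across genes of 0.39, 0.12 and 0.20), as did OE-WD and OE-CTD libraries (0.07, 0.14, 0.14 and 0.34). The labels do not state a pairing. The main fit used none, and the replicate number entered as a block in an alternative only. Named genes were the 10 members, the most abundant gene of each of 17 marker lists with those called, and the 5 genes most correlated with Krt5, Krt10, Dsp and Perp. Others were chosen after their values were seen: Esrp1, Tfap2a, Epcam, Krt17, Gjb2, Krt80, Lamb3, Far2, Dgat2l6, Emcn, the other desmosome genes and list genes at 0. The members and lists were chosen with earlier results of these data known.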

Additional observations from a re-analysis of the deposited data

Results flagged for a closer look

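In groups of 4 libraries, 1 library far from the other 3 was looked for in the CPM of each of the 10 genes and in the summed CPM of the 17 marker lists and of the 44 other epidermal genes together, in OE-CTD and OE-WD, 56 sets of values in all. Chance marks about 1 in 20 such groups, and 2 were marked here. The hair follicle sum in OE-CTD was 9.48 CPM in OE-CTD 3 against 1.23 to 1.84 CPM in the other 3 libraries, a gap of 0.926 of the group's range. The skeletal muscle sum in OE-CTD was 170900 CPM in OE-CTD 4, the library without a count of Krt5, against 121000 to 127100 CPM in the other 3, a gap of 0.876 of the range. None of the 10 genes was marked by itself.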

How the results depend on the processing

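Under every alternative run, the count of altered members was 0 in CT-WD against CT-CTD, in OE-WD against OE-CTD and in the difference of diet responses. In OE-WD against CT-WD it ranged from 0 to 2 with a library left out, and was 2 (Dsp and Sbsn) without CT-WD 1 and, in a run added after seeing the data, without CT-WD 1 and CT-CTD 1 together. In OE-CTD against CT-CTD it was 1 (Lor) with no filter on low counts and 0 otherwise. Krt5 turned in direction in OE-CTD against CT-CTD, from −0.19 to 0.11 with limma on log2(FPKM + 1), to 2.02 without CT-WD 1 and CT-CTD 1 together, to 0.20 without OE-CTD 4 and OE-WD 4 together (also added after seeing the data), and over −0.74 to 2.01 with 1 library left out. In CT-WD against CT-CTD it ran from −2.18 to 2.77 with 1 library left out. The cause was not tested. With the replicate number as a block, the count of altered members was 0 in all 4 contrasts. At an unadjusted p with the fold the block moved it from 1 to 0 in CT-WD against CT-CTD, where it changed no other call, from 0 to 1 in OE-WD against CT-WD and from 2 to 1 in OE-CTD against CT-CTD, and left it at 2 in OE-WD against OE-CTD. The shares of all genes passing that limit with the block are not given here, so these counts have no background beside them. With the block, Krt5 was at 1.17 in OE-CTD against CT-CTD. The genes called over the whole table went from 87 to 6 in OE-WD against CT-WD and from 295 to 151 in OE-CTD against CT-CTD. Same-numbered libraries had correlations of 0.07 to 0.34 in OE-WD with OE-CTD, which overlap those of CT-WD with CT-CTD. Between genotypes these were −0.23 to 0.05. The count of genes varying together was 6 under each scaling, prior count and library left out, and about the group means. It was 5 with log2(FPKM + 0.1), where Dsp had an SD of 0.91, and 4 with log2(FPKM + 1), where Krt1 and Dsp fell short and Dsp and Sbsn had SDs under 0.5. Limma on log2(FPKM + 1) could test 8 of the 10 genes. Depth limited genes at or under 3 counts: a level at 0 counts is a bound, and one at 1 to 3 counts has a wide counting interval.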

Other observations

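OE-CTD 4 and OE-WD 4, which each stood apart from the other 3 libraries of their group over all genes, differed from each other in the epidermal genes. OE-CTD 4 had 0 counts of Krt5, Krt14, Krt15 and Krt1, whereas OE-WD 4 had 11 CPM of Krt5 and the highest hair follicle sum, with 317 counts of Tchh and 237 of Krt25. In OE-CTD 3 and OE-WD 3 the same 2 genes had 30 and 20, and 68 and 54 counts. Krt17, which is made in hair follicles as well as in stressed epidermis, was highest in OE-WD 4 (4.98 CPM), ahead of OE-WD 3 (3.19 CPM) and CT-WD 1 (2.28 CPM).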
